A study of Homo sapiens with 18 samples.

Results

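The effect of Hic-5 on glucocorticoid receptor (GR) binding in CHD9 depleted cells was read from the pair of GR ChIP-seq peak lists that differ in Hic-5 but share the depletion of CHD9. A GR binding region (GBR) of the siCHD9/siHic5 list was counted as gained when no siCHD9/siNS GBR overlapped it by at least 1 bp, and as shared otherwise. A siCHD9/siNS GBR with no overlapping siCHD9/siHic5 GBR was counted as lost. There were 1128 gained GBR among the 2451 of siCHD9/siHic5 and 87 lost GBR among the 1415 of siCHD9/siNS, out of 20642 GBR in the 6 lists of the series.

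U2OS-GRα cells, a derivative of the established human osteosarcoma line U2OS that stably expresses GRα, received paired siRNAs for 48 h and then 100 nM dexamethasone (dex), a synthetic glucocorticoid, for 1 h. The siCHD9/siNS cells received siRNA against CHD9 with a non-specific siRNA, and the siCHD9/siHic5 cells received siRNA against both CHD9 and Hic-5. The other 4 combinations were siNS/siNS (non-specific siRNA, with Hic-5 and CHD9 both present), siHic5/siNS (Hic-5 depleted), siBRM/siNS (BRM depleted) and siBRM/siHic5 (both depleted). Each combination was represented by 2 ChIP libraries, which the authors pooled into 1 list, so no spread between replicates can be given, the intervals below cover counting error only, and every comparison is one of lists and not of replicated conditions. All 6 lists come from dex-treated cells of a single line that carries added GRα. The peak lists hold no read totals and no expression values, so neither the depth of each list nor the extent of the knockdowns was examined here.

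GR is a nuclear receptor that moves to the nucleus when it binds glucocorticoid and then occupies DNA at glucocorticoid response elements (GRE) or together with other factors, among them the Fos/Jun dimers known as AP-1. Hic-5, encoded by TGFB1I1, is a LIM domain protein of focal adhesions that also acts in the nucleus as a coregulator of steroid receptors. CHD9 and BRM are ATPases of chromatin remodeling complexes, which move or evict nucleosomes and so change how accessible a site is to GR.

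DNA at the center of 8 GBR is shown to place the counts that follow on actual sites: 7 gained GBR and, for comparison, the second strongest shared GBR. Each run is 121 bases of the plus strand of GRCh38, 5′ to 3′, centered on the summit, with matches to the GRE or AP-1 patterns in capitals. The GRE pattern was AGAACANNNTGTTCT with at most 2 mismatches in its 12 defined positions, and the AP-1 pattern was TGACTCA or its reverse complement TGAGTCA.
MGLL intron, gained, GRE, chr3:127889530-127889650: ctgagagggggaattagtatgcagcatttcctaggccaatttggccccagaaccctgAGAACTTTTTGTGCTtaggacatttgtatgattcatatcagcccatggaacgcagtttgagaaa
PER1 intron, gained, GRE, chr17:8151890-8152010: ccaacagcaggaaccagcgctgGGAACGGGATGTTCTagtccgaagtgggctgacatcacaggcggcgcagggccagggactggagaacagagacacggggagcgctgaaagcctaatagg
ITGB8 intron, gained, GRE, chr7:20341037-20341157: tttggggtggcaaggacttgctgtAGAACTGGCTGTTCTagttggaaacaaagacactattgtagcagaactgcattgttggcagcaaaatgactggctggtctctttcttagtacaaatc
DNER intron, gained, AP-1 then GRE, chr2:229586165-229586285: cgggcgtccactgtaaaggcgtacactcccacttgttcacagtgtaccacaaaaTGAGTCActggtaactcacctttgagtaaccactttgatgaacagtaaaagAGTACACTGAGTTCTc
upstream of SLC46A1, gained, AP-1 then GRE, chr17:28436760-28436880: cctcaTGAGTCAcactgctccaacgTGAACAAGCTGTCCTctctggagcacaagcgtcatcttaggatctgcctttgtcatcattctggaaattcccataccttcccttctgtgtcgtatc
WWOX intron, gained, AP-1, chr16:79182742-79182862: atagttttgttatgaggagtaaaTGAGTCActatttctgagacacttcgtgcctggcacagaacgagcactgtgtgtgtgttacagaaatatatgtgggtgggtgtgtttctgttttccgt
ELK3 intron, gained, AP-1, chr12:96196905-96197025: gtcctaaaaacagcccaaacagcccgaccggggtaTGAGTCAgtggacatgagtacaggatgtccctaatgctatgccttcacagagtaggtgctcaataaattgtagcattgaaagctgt
upstream of PRR20G, shared, GRE, chr3:127304383-127304503: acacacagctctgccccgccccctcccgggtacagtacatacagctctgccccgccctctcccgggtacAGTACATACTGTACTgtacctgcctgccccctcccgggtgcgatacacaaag

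Every site shown holds a match and so does not stand for the shares of all gained GBR. Within 200 bp, 18.5% of gained GBR held a GRE match and 29.4% an AP-1 match. Of the matches shown, the one in ITGB8 differed from the GRE pattern at 1 position and the other GRE matches at 2. These sites differ in where else GR was called. The PER1, ITGB8, SLC46A1 and WWOX sites were called in siHic5/siNS and not in siNS/siNS, whereas the MGLL, DNER and ELK3 sites were called in both of these lists. The PRR20G site, ranked 2 in siCHD9/siHic5, was called in all 6 lists.

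In CHD9 depleted cells, removal of Hic-5 went with a longer list and with few losses. The 1128 gained GBR were 46.0% of the siCHD9/siHic5 list (95% Wilson interval 44.1 to 48.0%), and 1323 GBR (54.0%) were shared. The 87 lost GBR were 6.15% of the siCHD9/siNS list (5.01 to 7.52%), and the other 1328 GBR of that list (93.9%) overlapped a siCHD9/siHic5 GBR. The shared GBR number 1323 on one list and 1328 on the other because a wide GBR can overlap more than 1. As these numbers come from the rule that made the classes, they carry no test, and the shares of all GBR gained (46%) and lost (6.15%) serve as the background.

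The list without Hic-5 was 1.73 times as long as the list with it when CHD9 was depleted, 1036 GBR more. With CHD9 present the same ratio was 3.69, from 2582 GBR in siNS/siNS to 9533 in siHic5/siNS, a difference of 6951. The ratio with CHD9 present was 2.13 times the ratio with CHD9 depleted, and with BRM depleted the ratio was 2.65. These ratios rest on 1 pooled list per combination, and no test of their difference is possible. The BRM depleted pair was also cut unevenly, with a lowest −log10 q-value of 14.2 in siBRM/siHic5 and 7.26 in siBRM/siNS. In the CHD9 depleted pair the lowest values were 7.74 without Hic-5 and 7.62 with it. With CHD9 present they were 8.91 and 8.88. The part of the uneven cutoff in the ratio of 2.65 was not tested. Depth and enrichment of the libraries cannot be told apart from Hic-5 in the length of a list. When both lists were limited to GBR with a −log10 q-value of at least 20, 522 were gained and 12 lost. These classes were counted anew within the limited lists, so a GBR whose partner fell below the cutoff counts as gained or lost.

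**Figure D1:**
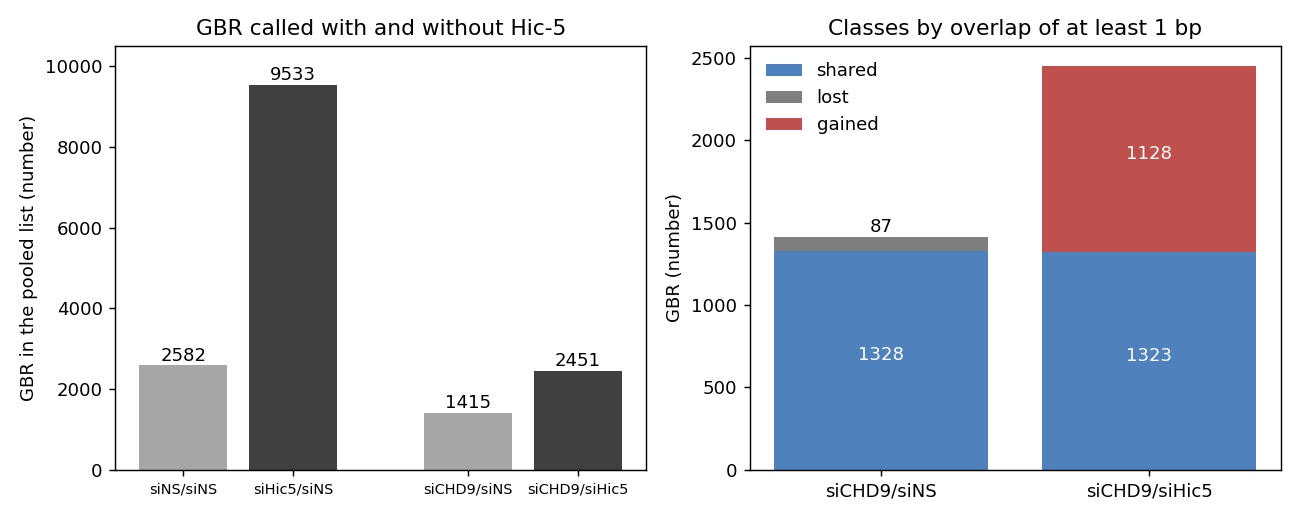
Left, number of GBR in the pooled list (bars) of cells with Hic-5 (light) and without Hic-5 (dark), for CHD9 present and CHD9 depleted. Right, the 2 lists of CHD9 depleted cells divided by overlap into shared, gained and lost GBR; 1128 GBR were gained and 87 lost.

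Gained GBR were the weaker GBR of their list. Their median −log10 p-value, the peak caller's measure of how far a peak stands above its background, was 15.0 (quartiles 12.9 and 18.5), against 32.2 (21.9 and 54.3) for shared GBR. When the list was divided into 10 groups of equal size by this value, 93.9% of the weakest group and 0.407% of the strongest were gained. The strongest group held a single gained GBR, in an intron of MGLL, which encodes monoacylglycerol lipase; it ranked 170 of 2451. The strongest shared GBR, ranked 1, lay in an intron of FKBP5 (chr6:35727449-35728617), a chaperone gene induced by glucocorticoids, and was called in all 6 lists. Lost GBR were weak as well, with a median −log10 p-value of 12.6 in the siCHD9/siNS list and a best rank of 629. Calling is all or none, and GR below the cutoff of the siCHD9/siNS list would go unseen at a gained GBR. The ranks of the 1323 shared GBR in the 2 lists were correlated (Spearman's rho 0.79 across GBR, which are not replicates). Since strength differed between the classes, the matched odds ratios given below are common odds ratios over 10 groups of equal strength, whereas shares and differences of shares are not matched for strength.

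**Figure D2:**
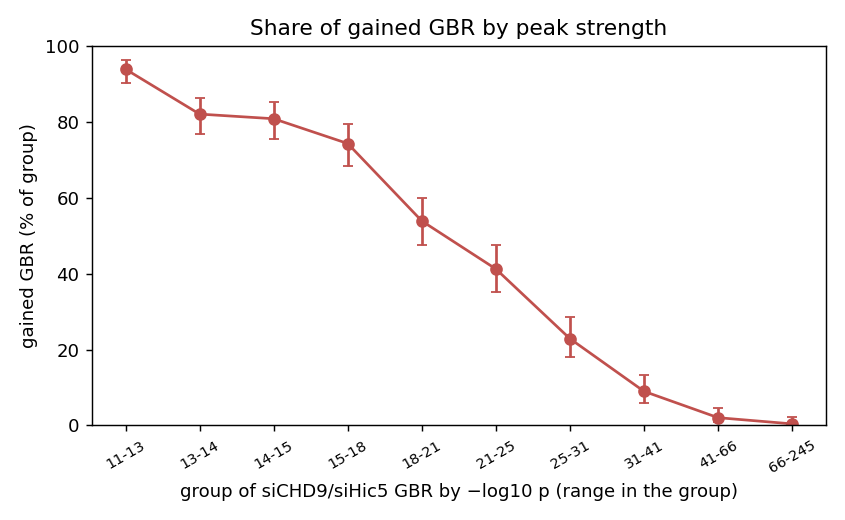
Percentage of siCHD9/siHic5 GBR that were gained (points, with 95% Wilson intervals) in 10 groups of equal size ordered by −log10 p-value, weakest at left; tick labels give the range of each group. The share is 93.9% in the weakest group and 0.407% in the strongest.

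The gap between the lists is not one of a few bases. The 3 gained GBR closest to a siCHD9/siNS GBR lay 231, 245 and 284 bp from it, and the 3 shared GBR with the least overlap shared 223, 246 and 246 bp with it, so no member sat at the edge of the 1 bp rule. The median distance to the nearest siCHD9/siNS GBR was 398 kb for gained GBR, and for shared GBR the nearest other siCHD9/siNS GBR was 256 kb away. Such a neighbor lay within 10 kb of 10.4% of gained and 16.3% of shared GBR. These distances come from the list that defined the classes and carry no test.

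Few gained GBR were absent from all of the other lists. Of the 1128, 1056 (93.6%, 92.0 to 94.9%) were also called in siHic5/siNS, the cells without Hic-5 but with CHD9, and 64 (5.67%) in no other list. Where overlap of at least 50% of both peaks was required, the share called in siHic5/siNS was 79.0%. In siNS/siNS 509 of them (45.1%, 42.2 to 48.0%) were called, against 1188 of 1323 shared GBR (89.8%). At equal strength the odds of a call in siNS/siNS were 0.220 times those of shared GBR (95% interval 0.170 to 0.284). For siHic5/siNS the matched odds ratio was 0.579 with an interval that includes 1 (0.288 to 1.17).

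The lists of BRM depleted cells, which share no library with the comparison, also held fewer of the gained than of the shared GBR. In siBRM/siHic5, without Hic-5, 750 gained GBR (66.5%, 63.7 to 69.2%) and 1278 shared GBR (96.6%) were called. In siBRM/siNS, with Hic-5, 173 gained GBR (15.3%, 13.4 to 17.6%) and 905 shared GBR (68.4%) were called. The matched odds ratios of gained against shared were 0.264 (0.186 to 0.375) and 0.226 (0.176 to 0.289). The siBRM/siHic5 list was cut at a higher −log10 q-value (lowest value 14.2) than the siCHD9/siHic5 list (7.74), and the part of this difference in the counts was not tested.

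**Figure D3:**
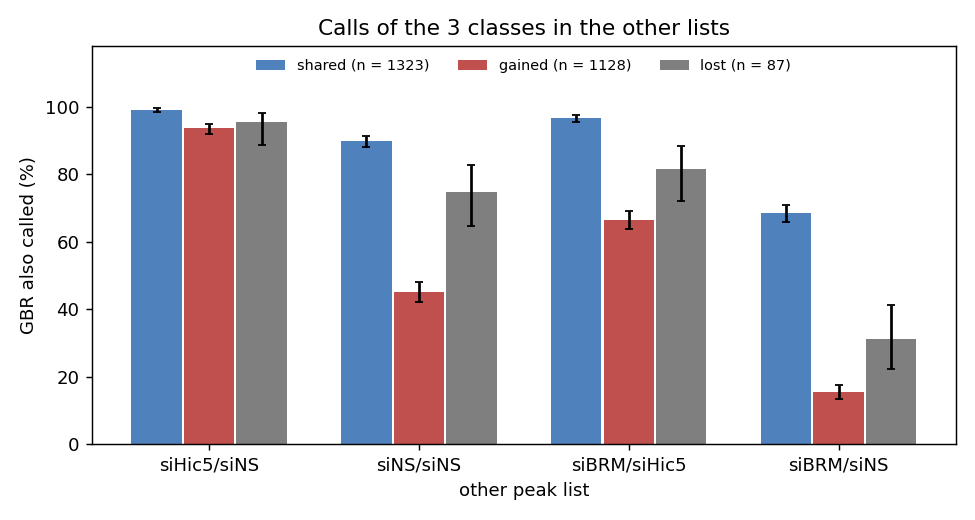
Percentage of shared, gained and lost GBR that overlapped a GBR of each of the other 4 lists (bars, with 95% Wilson intervals). Gained GBR were called in 93.6% of cases in siHic5/siNS and in 45.1% in siNS/siNS.

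The gained GBR fell into 2 groups of similar size by their calls in cells with CHD9. In the first group 507 GBR (44.9%) overlapped a GBR of siNS/siNS and one of siHic5/siNS: GR was called there in control cells, was not called after CHD9 depletion with Hic-5 present, and was called again when Hic-5 was depleted too. In the second group 549 GBR (48.7%, 45.8 to 51.6%) were called in siHic5/siNS but not in siNS/siNS, so that with CHD9 and without it they were called in the cells depleted of Hic-5 and not in those containing it. Among shared GBR the second pattern made up 9.45% (125 of 1323). Only 2 gained GBR were called in siNS/siNS but not in siHic5/siNS, in an intron of WNT9A and 37.8 kb upstream of KCND3, and 70 (6.21%) in neither. With both lists limited to a −log10 q-value of at least 20, 82.6% of the 522 gained GBR were called in siNS/siNS and 16.7% in siHic5/siNS only. These 522 include GBR that overlap a siCHD9/siNS GBR below the cutoff. The values therefore do not show how the division varies with strength among all gained GBR.

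The 2 groups differed little in strength in the siCHD9/siHic5 list, with median −log10 p-values of 15.9 and 14.5, and more in siHic5/siNS, where the medians were 49.1 and 31.7. They also differed in calls when BRM was the missing remodeler. Of the GBR called in both lists 88.2% were called in siBRM/siHic5 and 32.0% in siBRM/siNS. Of those called in siHic5/siNS only, 54.1% were called in siBRM/siHic5 and 1.82%, 10 GBR, in siBRM/siNS. At equal strength in siCHD9/siHic5 the odds ratios of the second group against the first were 0.165 (0.120 to 0.229) and 0.0449 (0.0235 to 0.0859).

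The 3 strongest gained GBR called in both lists were the MGLL intron (chr3:127889333-127889838), a region 193 kb upstream of HMGA2 (chr12:65631627-65632160), which encodes an architectural chromatin protein, and the DNER intron (chr2:229586019-229586532), with ranks of 170, 425 and 444 in siCHD9/siHic5. The MGLL site was ranked 181 of 9533 in siHic5/siNS but 2544 of 2582 in siNS/siNS, near the end of that list. The HMGA2 site behaved alike, with ranks of 763 and 2568, whereas the DNER site was ranked 716 and 964. The 3 strongest called in siHic5/siNS only lay in introns of WWOX (chr16:79182582-79183041) and PKHD1 (chr6:52065432-52065994) and 30.6 kb upstream of SLC46A1 (chr17:28436612-28437131). WWOX encodes an oxidoreductase at a common fragile site, and SLC46A1 the proton-coupled folate transporter. Their ranks in siCHD9/siHic5 were 342, 467 and 576, all 3 carried an AP-1 match within 1 kb, and all 3 were also called in siBRM/siHic5 and not in siBRM/siNS.

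Seen from the cells with CHD9, gained GBR made up a small share of the blocked GBR. Of the 7059 blocked GBR, those called in siHic5/siNS and not in siNS/siNS, 6915 were absent from siCHD9/siNS, and 543 of these (7.85%, 7.24 to 8.51%) were called in siCHD9/siHic5. Of the 2474 siHic5/siNS GBR shared with siNS/siNS, 1238 were absent from siCHD9/siNS, and 502 of these (40.5%, 37.8 to 43.3%) were called in siCHD9/siHic5. At equal strength in siHic5/siNS the odds for blocked GBR were 0.399 times those for shared GBR (0.337 to 0.472). Strength in siHic5/siNS moved with the outcome: among blocked GBR absent from siCHD9/siNS the median −log10 p-value was 31.5 where GR was called in siCHD9/siHic5 and 17.8 where it was not.

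Counted on the siNS/siNS list, 1255 of 2582 GBR were called in siCHD9/siNS. Of the 1327 that were not, 508 (38.3%, 35.7 to 40.9%) were called in siCHD9/siHic5 and 819 in neither. Over 10 groups by strength in siNS/siNS, the share called only in siCHD9/siHic5 of these 2 lists lay between 20.5% and 30.5% in the 7 weaker groups and was 10.9, 6.59 and 0.772% in the 3 stronger ones, in which 82.6, 91.9 and 99.2% of the GBR were called in siCHD9/siNS.

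DNA sequence had no part in the definition of the classes. Within 1 kb, 23.2% of gained and 32.9% of shared GBR held a GRE match, which compares with 6.56% and 6.84% of the windows placed 5 kb away on each side and with 28.0% of all GBR of the 6 lists. For AP-1 the shares were 47.7% of gained and 46.2% of shared GBR, with 16.8% and 16.2% in the outer windows and 39.3% over all GBR. ETS matches (CCGGAAG or CAGGAAG) were present in 38.7% of gained and 40.6% of shared GBR, with 32.2% and 33.5% in the outer windows and 40.6% over all GBR. Both strands were searched for all patterns, and a match describes letters and not a bound factor.

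At equal strength the interval of the GRE odds ratio of gained against shared GBR included 1 (0.860, 0.673 to 1.10), as did that of ETS (0.904, 0.724 to 1.13). The AP-1 odds ratio was 1.26 (1.01 to 1.57), and 1.54 (1.19 to 1.98) in a window of 200 bp, but with 10 groups by signal value in place of the p-value it was 1.14 (0.930 to 1.39). GRE matches lay close to the summit, at a median of 22.5 bp in gained and 15.5 bp in shared GBR with a match, and 81.3% and 87.6% lay within 100 bp. AP-1 matches lay farther out, at medians of 76.5 and 82.5 bp. In bins of 20 bp the GRE density reached 2.79 matches per kb per gained GBR and 5.03 per shared GBR, and the AP-1 density 2.22 and 1.89.

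**Figure D4:**
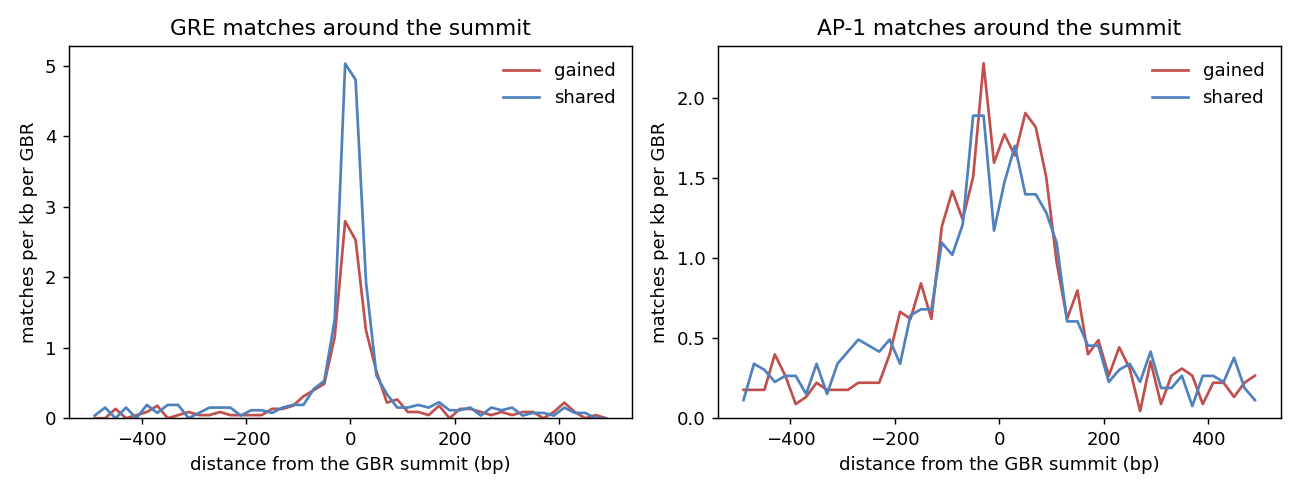
Density of GRE (left) and AP-1 (right) matches, in matches per kb per GBR, against distance from the summit in bp (bins of 20 bp), for gained (red) and shared (blue) GBR, not matched for strength. GRE matches reach 2.79 per kb at gained and 5.03 at shared GBR, AP-1 matches 2.22 and 1.89.

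AP-1 matches were more frequent in the second group of gained GBR than in the first. They were found in 314 of the 549 GBR called in siHic5/siNS only (57.2%, 53.0 to 61.3%) and in 190 of the 507 called in both lists (37.5%, 33.4 to 41.8%), a difference of 19.7 points (13.7 to 25.5). GRE matches went the other way, with 18.6% and 30.0%. For AP-1 the matched odds ratio was 2.31 (1.80 to 2.98), for GRE 0.557 (0.417 to 0.744), while that of ETS included 1 (1.19, 0.927 to 1.53). Mean GC content of the windows was 46.8% (SD 8.44 across GBR) and 47.4% (SD 8.41), and over 10 groups by GC content the AP-1 odds ratio was 2.22.

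Among sites with the same history in cells with CHD9, AP-1 matches also went with a call in siCHD9/siHic5. Of the 543 blocked GBR that were absent from siCHD9/siNS and called in siCHD9/siHic5, 310 (57.1%, 52.9 to 61.2%) had a match, against 2233 of the 6372 absent from both (35.0%, 33.9 to 36.2%). The odds ratio at equal strength in siHic5/siNS was 2.52 (2.08 to 3.05), and 3.05 (2.49 to 3.73) in 200 bp. GRE matches were in 18.6% and 22.0% (matched odds ratio 0.722, 0.569 to 0.917). ETS matches were in 40.3% and 42.2% (0.830, 0.686 to 1.00), and in 200 bp the matched odds ratio was 0.664 (0.503 to 0.875).

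The siNS/siNS GBR absent from siCHD9/siNS gave a like value for AP-1 over the whole list. A match lay at 187 of the 508 called in siCHD9/siHic5 (36.8%, 32.7 to 41.1%) and at 195 of the 819 absent from it (23.8%, 21.0 to 26.8%), with a matched odds ratio of 2.04 (1.59 to 2.62). Among GBR with a −log10 q-value of at least 20 in siNS/siNS, however, 28 of 117 and 20 of 79 had a match, and the odds ratio was 1.01 (0.509 to 1.99). For blocked GBR of that strength in siHic5/siNS it was 2.45 (1.94 to 3.08). The GRE odds ratio in siNS/siNS included 1 (0.844, 0.658 to 1.08). The same held for ETS in 1 kb (0.958, 0.758 to 1.21) and in 200 bp (1.19, 0.844 to 1.67).

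RUNX and TEAD are families of DNA-binding factors active in bone and other mesenchymal cells, and their patterns (TGTGGTT and ACATTCC) were added after the values above were seen. RUNX matches were at 23.2% of gained and 22.6% of shared GBR, and TEAD matches at 23.6% and 27.7%. The matched odds ratio of TEAD was 0.778 (0.607 to 0.996), and that of RUNX included 1 (0.935, 0.722 to 1.21). Among the blocked GBR absent from siCHD9/siNS, the matched odds ratio of a RUNX match for a call in siCHD9/siHic5 was 1.24 (0.996 to 1.55) in 1 kb and 1.69 (1.18 to 2.43) in 200 bp. For the siNS/siNS GBR absent from siCHD9/siNS both values included 1 (0.947, 0.720 to 1.25, and 1.04, 0.680 to 1.58).

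**Figure D5:**
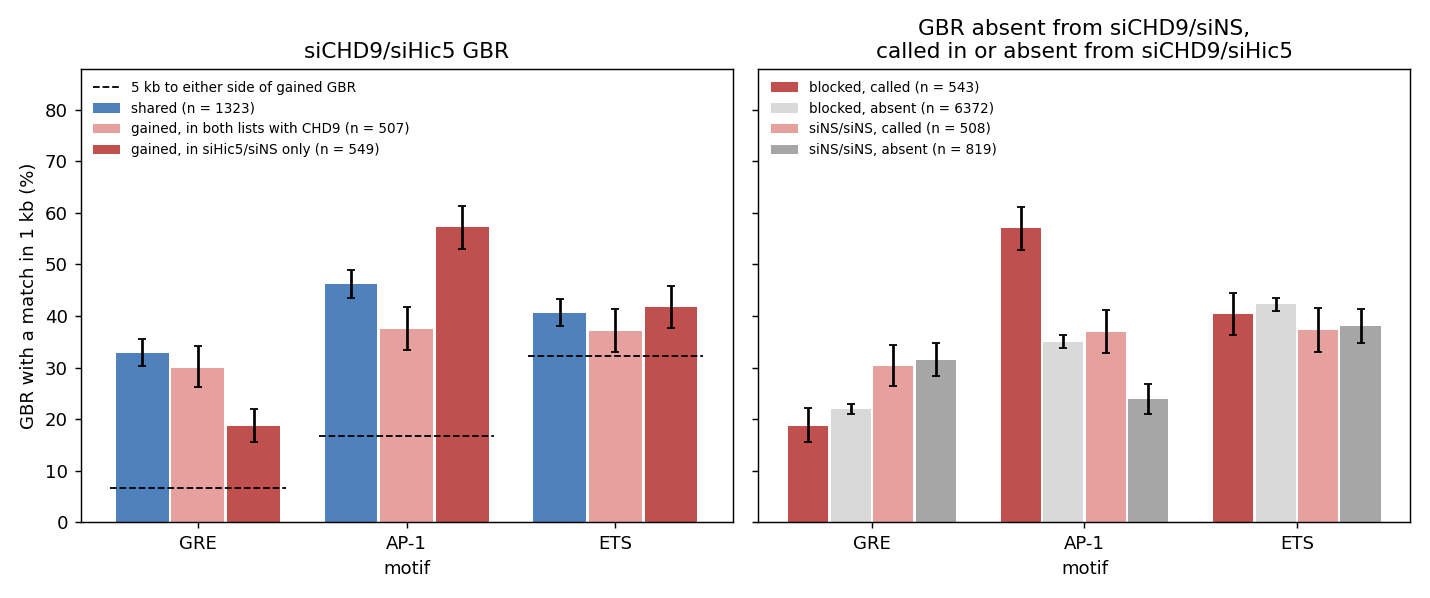
Percentage of GBR with a GRE, AP-1 or ETS match within 1 kb (bars, with 95% Wilson intervals; dashed lines, windows 5 kb to either side of gained GBR). Left, shared GBR and the 2 groups of gained GBR; right, blocked GBR and siNS/siNS GBR absent from siCHD9/siNS, divided by a call in siCHD9/siHic5. AP-1 matches are in 57.2% of gained GBR called in siHic5/siNS only and 37.5% of those called in both lists.

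Gained and shared GBR lay in similar places. The summit was intergenic in 54.2% of gained and 55.2% of shared GBR and in an intron in 40.9% and 40.7% (GENCODE release 44, protein-coding genes). The nearest transcription start site (TSS) was at a median distance of 54.9 kb and 56.2 kb, and within 10 kb for 18.4% and 17.1% (difference 1.36 points, -1.67 to 4.41). Within 1 kb of a TSS lay 49 gained GBR (4.34%), the strongest of them at ARMC8, PARP2 (the GBR in the noncoding RNA gene RPPH1), TGIF1, FAIM and LHX4. Coding exons held 2.84% of gained and 1.36% of shared summits, a difference of 1.48 points (0.344 to 2.72) that was not matched for strength. UTRs went the other way, with 2.13% and 2.72%, and the interval of that difference included 0 (-0.593 points, -1.83 to 0.671).

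Exonic summits were more frequent among the 70 gained GBR called in neither list of cells with CHD9. Of these, 16 (22.9%, 14.6 to 34.0%) had the summit in a coding exon or UTR, against 3.64% of the gained GBR called in siHic5/siNS only (difference 19.2 points, 10.7 to 30.4) and 3.94% of those called in both. A GRE match was found at 6 of the 70 (8.57%), and the GBR were at least 600 bp wide in 22.9%, against 7.29% and 6.31%. Among shared GBR 27.5% were at least that wide. In all, 21 of the 70 lay in 13 genes, which were picked out after their values were seen. They include the RNA components of RNase P (RPPH1, 1 GBR, rank 814) and RNase MRP (RMRP), the nuclear long noncoding RNA MALAT1 (3), the immediate early genes EGR1 (2), FOSB (3), BTG2 and RHOB, the actins ACTB and ACTG1 (2), the keratins KRT19 (2) and KRT8, the protease gene CTSD (2) and the zinc transporter gene SLC39A6.

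The gained GBR were spread over many genes. Of 20033 protein-coding genes, 1777 (8.87%) had a gained GBR within 100 kb of the TSS and 224 (1.12%) within 10 kb. Shared GBR lay within 100 kb of 2017 genes (10.1%) and within 10 kb of 260 (1.3%), and lost GBR within 100 kb of 164 (0.819%). For 1247 genes (6.22%) the gained GBR had no siCHD9/siNS GBR beside it within 100 kb of the TSS, so that, of the CHD9 depleted cells, only those also depleted of Hic-5 had a GBR there. Most of the 1777 genes had 1 gained GBR (1509) and 217 had 2. PTPN1, which encodes the tyrosine phosphatase PTP1B, had the most, 5, beside 5 shared GBR. A tie of 11 genes had 4 each, of which the first 4 by name are CCDC57, ERCC1, FOSB and IL17REL; ERCC1 and FOSB are neighbors and had no shared GBR and 1 lost GBR.

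Over the 11 gene lists examined, 49 of 266 different genes (18.4%) had a gained GBR within 100 kb and 64 (24.1%) a shared one, against 8.87% and 10.1% of all genes. The 70 different gained GBR near them divided by their calls in cells with CHD9 into 26 in both lists (37.1%), 35 in siHic5/siNS only (50%) and 9 in neither (12.9%). Of all gained GBR these shares were 44.9%, 48.7% and 6.21%. Of 87 shared GBR near these genes 82 (94.3%) were called in both lists, against 89.6% of all shared GBR. Genes that lie close together share sites, and a GBR within 100 kb of a TSS need not act on that gene.

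Established glucocorticoid response genes had gained GBR in 8 of 22 cases (36.4%) and shared GBR in 16 (72.7%), against 8.87% and 10.1% of all genes. KLF9, a Krüppel-like transcription factor induced by glucocorticoids, had gained GBR 7.34 kb and 24.1 kb upstream of its TSS, both called in siNS/siNS. The ubiquitin-editing enzyme gene TNFAIP3, a brake on NF-kB, had one in an intron 6.28 kb downstream of the TSS, also called in siNS/siNS. At SCNN1A, a subunit gene of the epithelial sodium channel, the intronic GBR 2.41 kb downstream was the strongest gained GBR near any of these genes, with a rank of 723. The clock gene PER1 and the phosphatase gene DUSP1 differed from these: the PER1 GBR 0.454 kb from the TSS and the DUSP1 GBR 4.58 kb and 24.4 kb upstream were called in siHic5/siNS and not in siNS/siNS. GADD45B, MT2A and TSC22D3 had 1 gained GBR each, 17.0, 73.7 and 98.5 kb away. All but 1 of the 8 genes also had a siCHD9/siNS GBR within 100 kb.

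Of the NF-kB inhibitors and other brakes on inflammation 7 of 22 (31.8%) had a gained GBR and 9 (40.9%) a shared one, against 8.87% and 10.1% of all genes. Beside TNFAIP3 and DUSP1 these were DUSP5, SOCS1, TNIP1, ZFP36 and ZFP36L1. The GBR 5.74 kb from the TSS of ZFP36, which encodes an mRNA decay factor, was called in siNS/siNS, whereas the 3 of DUSP5, the one of TNIP1, 12.6 kb upstream, and the one of ZFP36L1, 12.9 kb away, were called in siHic5/siNS only.

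Among the AP-1 and ETS factor genes 7 of 29 (24.1%) had a gained GBR within 100 kb, against 8.87% of all genes. Within 10 kb 5 (17.2%) had one, against 1.12%. Shared GBR lay within 100 kb of 6 (20.7%) and within 10 kb of 1 (3.45%), against 10.1% and 1.3% of all genes. FOS had 1 gained GBR 23.1 kb from its TSS, JUN 1 in its UTR, JUNB 1 at 4.81 kb upstream and JUND 1 at 93.0 kb upstream, and all 4 were called in siHic5/siNS and not in siNS/siNS. Their ranks in siHic5/siNS were 2043, 9264, 6422 and 2855 of 9533, so the JUN site was near the end of that list. Of the 4 near FOSB, 3 lay in the transcribed exons of the gene itself and were called in no other list. ELK3, an ETS factor, had an intronic GBR 2.59 kb from the TSS with the AP-1 match shown above, and ETV4 one at 9.98 kb.

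Hic-5 is itself a focal adhesion protein. Of the focal adhesion and integrin genes 7 of 39 (17.9%) had a gained GBR and 10 (25.6%) a shared one, against 8.87% and 10.1% of all genes. The integrin genes ITGB8 (in an intron 10.2 kb from the TSS, rank 1017, called in siHic5/siNS only) and ITGA3 (in an intron 8.71 kb from the TSS, and 27.6 kb upstream, both called in siNS/siNS) had the closest, and ITGA10, ITGB4, PARVA, PTK2B and TLN1 followed at larger distances. The TLN1 GBR was the one in RMRP, 74.2 kb away. TGF-beta signaling genes had gained GBR in 3 of 33 cases (9.09%), near the 8.87% of all genes. These were ID1, ID2 and LTBP3, the last of them through the 3 GBR in MALAT1.

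Among the circadian clock genes 5 of 21 (23.8%, against 8.87% of all genes) had a gained GBR: PER1, NR1D1, NR1D2, BHLHE40 and CSNK1D. The metabolism and fasting target genes had 5 of 26 (19.2%, against 8.87%), namely DDIT4, INSR, PFKFB4, SLC2A1 and TXNIP, with the TXNIP GBR 0.147 kb from the TSS. Genes of cell cycle arrest and survival had 6 of 25 (24%, against 8.87%): BBC3, BCL2L1, BTG2, GADD45A, GADD45B and PMAIP1. Shared GBR lay near 5 clock genes (23.8%), 6 metabolism genes (23.1%) and 8 cell cycle genes (32%), against 10.1% of all genes. Osteoblast differentiation genes had 2 of 24 (8.33%), near the 8.87% of all genes, and both were without a siCHD9/siNS GBR within 100 kb (6.22% of all genes had a gained GBR and no siCHD9/siNS GBR in that range). These were ALPL, the alkaline phosphatase gene, with GBR 59.1, 64.9 and 77.8 kb downstream of the TSS, and the homeobox gene DLX3, whose 2 GBR are also those of ITGA3.

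Of the remodeler and GR coregulator genes 2 of 37 (5.41%, against 8.87% of all genes) had a gained GBR, CHD9 itself and the coactivator gene NCOA3. Of the 6 representative genes of the study, SCNN1A and RP1L1 (33.3%) had a gained GBR and 4 (66.7%) a shared one, against 8.87% and 10.1% of all genes. The RP1L1 GBR lay 31.4 kb from the TSS. The study reported that the GBR nearest the RP1L1 TSS was no longer called after depletion of both CHD9 and Hic-5. The RP1L1 GBR counted here was called in siCHD9/siHic5, at rank 1953. It is therefore either another site or a call that differs from that report, and which of these holds was not examined.

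Lost GBR were few and weak. Of the 87, 83 (95.4%) were called in siHic5/siNS and 65 (74.7%) in siNS/siNS, and 71 (81.6%) in siBRM/siHic5. The strongest, 41.9 kb upstream of SLC6A6 (chr3:14360351-14360871), which encodes the taurine transporter, ranked 629 in siCHD9/siNS and was called in all 4 of the other lists. The next 4 lay in an intron of ERCC1, 65.4 kb upstream of GPC1, 45.1 kb upstream of SMURF2 and in an intron of RAB31, and each was called in siNS/siNS and in siHic5/siNS. Established glucocorticoid response genes with a lost GBR were NFKBIA, 13.7 kb from the TSS, ERRFI1, 49.4 kb upstream, and ZBTB16, 90.5 kb away. The strong GBR at NFKBIA itself (chr14:35403642-35404658), the inhibitor gene of NF-kB, was shared and ranked 4.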

How the data were processed

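The authors aligned trimmed reads to GRCh38/hg38 (BWA), discarded duplicates and mitochondrial reads, pooled replicates for peak calling with MACS2 and applied the IDR framework; versions and the IDR threshold are not given in the sources used here. The deposited lists hold, per peak, a signal value, the −log10 of the p-value and, used here as a score for cutoffs, that of the q-value, all made by the authors with MACS2. Depth acts on which weak peaks are called; heights were not compared between lists.

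Overlap, gene distances, motif counts, Wilson intervals for shares, Newcombe intervals for differences and Cochran-Mantel-Haenszel common odds ratios over 10 groups by −log10 p-value (95% confidence, no p-values) were computed with statsmodels 0.14.6, NumPy 2.4.6 and pandas 2.3.3 in Python 3.11.15; pysam 0.24.0 read the genome, which samtools 1.23.1 had indexed, and Matplotlib 3.10.9 drew the figures. Overlap counting was checked against bedtools 2.31.1, and the odds ratio and motif search on simulated data. Motif windows were 1 kb and 200 bp at the summit. Genes were the protein-coding genes of GENCODE release 44, with the TSS of the canonical transcript. All ends of GBR lay within GRCh38 sequences, and coordinates count from 1.

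The comparison, gene lists and patterns were chosen with earlier results of these data known. The rule for named sites took the 10 strongest gained, 5 strongest shared and 5 strongest lost GBR, the 3 nearest to the limit of overlap on each side, the 5 strongest gained within 1 kb of a TSS and the 3 strongest of each calling pattern; named genes were members of the 11 lists with a gained or lost GBR within 100 kb and the 5 genes with most gained GBR, ties taken by name. Alternatives were other overlap rules, cutoffs, windows, patterns, groupings and distances. The input libraries and the study's ATAC-seq and DiffBind results were not used here. The sequence of 1 gained GBR is not reported here.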

Additional observations from a re-analysis of the deposited data

How the results depend on the processing

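No paired analysis was possible because each list pools its 2 replicates and carries no replicate numbers, and for the same reason no replicate could be left out. Of 109 alternative values over 24 results, 68 kept their call or stayed within the main interval or 1.5-fold of the main count, 34 moved, 3 odds ratios came to exclude 1 and 4 came to include it; none of the odds ratios with an interval excluding 1 changed direction past 1. Overlap of at least 50% of both peaks raised the share lost to 8.27% and lowered the share of gained GBR blocked with CHD9 present to 42.4%, that called in siHic5/siNS to 79.0% and that called in siBRM/siHic5 to 63.6%. In the next 2 settings the classes were counted anew within the cut lists. Gained GBR there include those overlapping a siCHD9/siNS GBR that was cut away, so they are not a subset of the main class. With a −log10 q-value of at least 20 in both lists there were 522 gained (51.7%), 488 shared and 12 lost (2.39%) GBR, and 16.7% of gained and 0.820% of shared GBR were blocked with CHD9 present. With the 1000 strongest peaks of each list these values were 203 (20.3%), 797, 201 (20.1%), 29.1% and 3.89%, and the ratio of the lists was 1; lists of equal length fix this ratio and the near balance of gained and lost GBR. Without matching, the odds ratios of gained against shared GBR were 0.618 for GRE, 1.06 for AP-1 and 0.134 for a call in siHic5/siNS. With groups by signal value that of AP-1 was 1.14 and that of a call in siHic5/siNS 0.354, and with groups by GC content, an alternative chosen after seeing the data, that of AP-1 was 1.05. The AP-1 odds ratios within gained and within blocked GBR excluded 1 in all alternatives tried, also chosen after seeing the data; that within siNS/siNS GBR was 1.01 at a −log10 q-value of at least 20, where 117 and 79 GBR remained. The cause of these changes was not tested. The AP-1 pattern TGACTCA alone, planned as an alternative, is the same pattern on both strands, and TGANTCA was used instead. Shares of gained GBR called in the other 4 lists also moved under these 2 cutoffs, and shares within 10 kb of a TSS and numbers of genes moved with the distance or TSS set used. Counting GBR at most 1 kb apart as shared kept every count, share and call in its range.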
